A study of Caenorhabditis elegans with 2 samples.

Results

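The 42 genes described here are neuronal genes of the nematode Caenorhabditis elegans that serve the synapse and the axon, out of 19973 protein-coding genes in the annotation. They were taken by name and not by a threshold on a measured value, although the list was drawn up with earlier results of these data known. All 42 names were found in the annotation of the WBcel235 assembly, which is the same assembly as ce11. By what their products do, 17 serve vesicle release and recycling, 6 serve axonal transport, 7 serve axon growth and the building of the active zone, and 12 make, package or process transmitters and neuropeptides. The measurement was chromatin immunoprecipitation and sequencing (ChIP-seq) of SWSN-7, a subunit with an ARID domain found in the PBAF form of the SWI/SNF remodelling complex.

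The animals were whole hermaphrodite larvae of the first stage (L1) of strain OP512. This strain carries unc-119(tm4063) on chromosome III and the transgene wgIs512, from which SWSN-7 is made with GFP and FLAG at its C terminus. Larvae were synchronized by starvation at L1 after bleaching and taken 6 hours later, chromatin was sheared by sonication, and an antibody to GFP was used for the precipitation, while another field of the labels gives swsn-7 as the antibody. There was 1 group with 2 biological replicates, so no conditions were compared and no background from control chromatin was used here. Both replicates share the strain and the mutation, and unc-119 is itself among the 42 genes. In whole animals, occupancy in few cells and weaker occupancy in many cells cannot be told apart, and no expression was measured.

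At a chemical synapse, vesicles filled with transmitter are brought to the active zone, docked and primed, and fused with the membrane by a SNARE complex when calcium enters, after which the membrane is retrieved. Vesicle precursors reach the synapse along axonal microtubules on kinesin motors, and many of these genes were first found in C. elegans through mutants that move poorly (unc) or assemble synapses wrongly (syd). SWI/SNF complexes use ATP to slide or evict nucleosomes and are commonly found at promoters and enhancers. The release, transport and cytoskeletal genes act in most or all neurons, whereas each transmitter enzyme or transporter acts in particular classes of neurons.

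For each gene, a summit is the position of highest signal in a deposited region, and the promoter window reaches 1000 bp upstream and 500 bp downstream from each 5′ end of its protein-coding transcripts. The main list holds the 4087 regions that passed the threshold on the irreproducible discovery rate (IDR), a measure of how well the ranks of regions repeat between replicates. Its signal values, the peak caller's measure of enrichment, ran between 88.4 and 5142.4 with a median of 183.3. The pooled candidate list holds 30000 regions with signal values down to 14.9, and its 4087 strongest entries are those of the IDR list. Signal values are the authors' and are comparable within a list only. Read depth is unknown, so a weak or missing entry is not evidence of absence.

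The 5 sequences below are the 200 bases around the summit of the strongest promoter region of each role that could be shown and of the strongest intronic region, from the RefSeq sequence of WBcel235 and on the strand of the gene. They are shown because these regions carry the highest values described in the following paragraphs, and because the short motifs that recur among the regions can be read in them. Capitals mark every match on either strand to ATCGAT, a type of site bound by CUT homeodomain proteins, and to the GA repeat GAGAGA, which reads TCTCTC on the other strand. The rab-3 bases lie at chrII:5725187-5725386 (− strand), those of unc-16 at chrIII:9546066-9546265 (+ strand) and those of syd-2 at chrX:10555549-10555748 (− strand). The egl-21 bases lie at chrIV:10481769-10481968 (− strand). The unc-41 bases lie at chrV:9970228-9970427 (− strand), with the summit inside an intron of 243 bp.
rab-3: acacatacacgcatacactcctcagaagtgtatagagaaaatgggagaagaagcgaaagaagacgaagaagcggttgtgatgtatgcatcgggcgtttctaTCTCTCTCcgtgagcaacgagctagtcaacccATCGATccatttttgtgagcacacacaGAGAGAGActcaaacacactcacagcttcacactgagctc
unc-16: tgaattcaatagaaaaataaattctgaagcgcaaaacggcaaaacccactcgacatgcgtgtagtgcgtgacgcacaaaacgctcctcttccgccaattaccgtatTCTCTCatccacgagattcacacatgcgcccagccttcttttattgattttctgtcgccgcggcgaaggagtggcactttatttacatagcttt
syd-2: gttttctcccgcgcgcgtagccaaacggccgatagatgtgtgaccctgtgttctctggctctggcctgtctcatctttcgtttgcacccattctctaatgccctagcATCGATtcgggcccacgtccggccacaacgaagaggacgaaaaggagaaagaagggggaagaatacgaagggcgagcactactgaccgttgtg
egl-21: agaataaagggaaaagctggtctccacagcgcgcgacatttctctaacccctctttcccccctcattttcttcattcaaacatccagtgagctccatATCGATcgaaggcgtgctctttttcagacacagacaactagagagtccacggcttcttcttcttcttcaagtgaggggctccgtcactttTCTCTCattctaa
unc-41: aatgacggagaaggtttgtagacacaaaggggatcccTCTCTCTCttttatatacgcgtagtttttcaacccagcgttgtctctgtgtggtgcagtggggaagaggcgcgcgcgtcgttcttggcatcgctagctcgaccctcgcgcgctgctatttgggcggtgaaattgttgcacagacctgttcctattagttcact

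An IDR summit lay in the promoter window of 13 of the 42 genes (31.0%), against 15.9% of all protein-coding genes. An IDR summit lay in an intron, outside every exon of the gene, in 7 of the 42 (16.7%), against 3.52% of all protein-coding genes with introns. Counting either place, 17 of the 42 genes (40.5%) had an IDR region, against 17.3% of all protein-coding genes, and 25 had none. In the pooled candidate list the promoter window of 38 of the 42 genes (90.5%) held a summit, against 45.9% of all genes, and an intron did so in 30 (71.4%), against 20.8%. Only rpm-1, unc-46, cat-2 and tph-1 had no pooled candidate in either place. These shares describe the 42 genes in these libraries, and no test of the list was made.

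**Figure D1:**
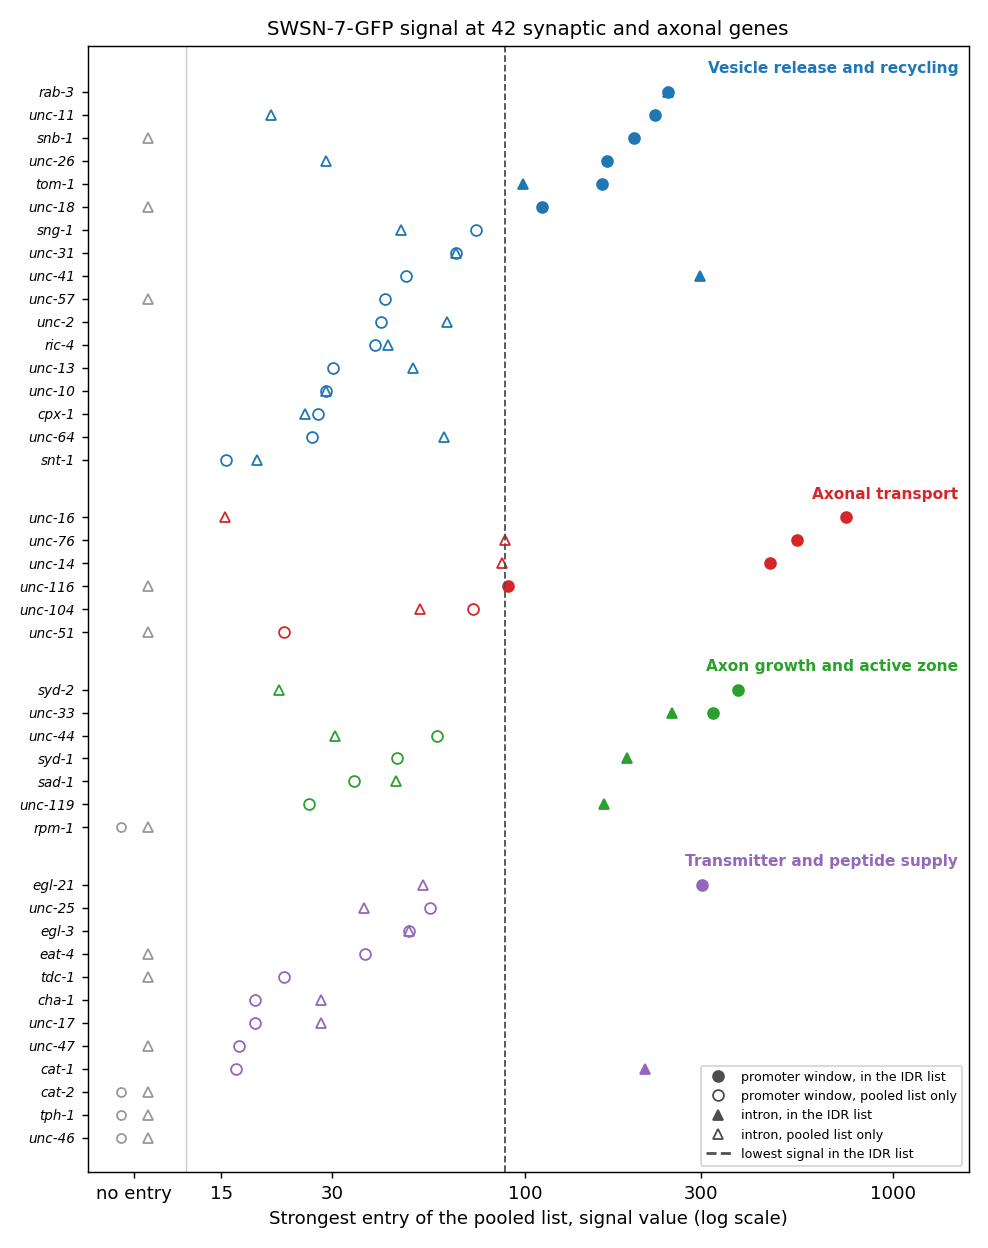
Signal value of the strongest pooled entry in the promoter window (circles) and in an intron (triangles) of each of the 42 genes, by role, on a log axis; filled symbols are in the IDR list, open symbols are not, and grey symbols at the left mark no entry. unc-16, unc-76 and unc-14 lie furthest right among the promoter entries, and the genes for small-molecule transmitters lie left of the dashed line at 88.4, except for the intronic entry of cat-1.

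The 42 genes are longer than most and have more room for a summit. Their median length was 6535.5 bp, against 2027 bp over all protein-coding genes, and their median intron length in sum was 4263.5 bp, against 722 bp. The median promoter window covered 1578 bp, against 1501 bp, and the median number of annotated 5′ ends was 2, against 1. Per 100 kb of promoter window there were 11.2 IDR summits at the members, against 9.55 over all protein-coding genes. Per 100 kb of intron there were 3.83 at the members, against 2.68. The ratios of these densities are thus smaller than those of the gene counts.

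Among the members, the transport genes carried the highest promoter signals. An IDR summit lay in the window of 4 of the 6 genes, and the median of their strongest pooled promoter signals was 275.8, against 43.2 over all 42 genes with the 4 that have no entry taken as 0. unc-16, which encodes the JIP3 type adaptor that links kinesin to cargo, had an IDR signal of 742.0 at chrIII:9546013-9546301, with its summit at −92 bp from the annotated 5′ end. Its signal was 310.3 in replicate 1 and 428.1 in replicate 2, and it ranked 241 and 223 among the 30000 entries of each. This was the strongest region among the 42 genes and ranked 231 of the 4087 IDR regions, and its summit also lies in an exon of the noncoding RNA gene ZK1098.13.

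unc-76, the FEZ family protein that couples kinesin-1 to cargo, had an IDR signal of 546.3 at chrV:15071287-15071692, with 236.8 in replicate 1 and 300 in replicate 2 and the summit at −289 bp. unc-14, a RUN domain protein that works with UNC-16 and the UNC-51 kinase, had 461.8 at −132 bp, with 151.9 and 311.4 in replicates 1 and 2. unc-116, the heavy chain of kinesin-1, had 89.8 at chrIII:8355038-8355437 and −64 bp, with 53.7 and 36. The unc-116 region is thus close to the lowest IDR signal of 88.4, and it ranked 5904 in replicate 2, below the 4087 strongest entries there. The other two transport genes had no IDR summit in the window. unc-104, the kinesin-3 motor of synaptic vesicle precursors, had a pooled signal of 72.1, with strongest window signals of 39.3 and 33.3 in replicates 1 and 2. unc-51, the ULK type kinase needed for axon growth, had 22.2 in the pooled list and 24.3 in replicate 1, with no entry in the window in replicate 2. No transport gene had an IDR summit in an intron, and the values nearest to the threshold from below were the introns of unc-76 (88.1) and unc-14 (86.9).

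Among the release genes an IDR summit lay in the promoter window of 6 of 17 (35.3%), against 15.9% of all protein-coding genes. An intron held one in 3 of them (17.6%), against 3.52% of all protein-coding genes with introns. Per 100 kb of intron, however, these genes had 2.24 IDR summits, against 2.68 over all protein-coding genes. The 4 genes of the fusion machinery divided evenly. snb-1, which encodes synaptobrevin, the SNARE of the vesicle, had an IDR signal of 197.9 at chrV:6656774-6656958 and −384 bp, with 120.1 in replicate 1 and 84.2 in replicate 2. unc-18, the Sec1/Munc18 protein that chaperones syntaxin, had 111.1 at chrX:7682447-7682604 and −312 bp, with 40.4 and 67.2. The SNAREs of the plasma membrane were below the threshold: unc-64 (syntaxin) had a pooled signal of 26.5 and ric-4 (SNAP-25) had 39.2. In replicates 1 and 2 the strongest window entries of unc-64 had 13.8 and 14, and those of ric-4 had 14.4 and 31.6.

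Of the genes for priming, calcium sensing and control of fusion, tom-1 had IDR regions and the other 4 had none in either place. Over all protein-coding genes 17.3% had an IDR region in either place, and so small a group cannot be set apart from that share. tom-1 encodes tomosyn, an inhibitor of vesicle priming, and its promoter region at −386 bp had a signal of 161.9, with 77.7 in replicate 1 and 83.7 in replicate 2. A second tom-1 region, 4373 bp downstream of the 5′ end in an intron of 1696 bp, had 98.9, with 40.8 and 54.5. This intronic summit is also at −305 bp from the 5′ end of ostd-1, which is nearer, so the region cannot be given to tom-1 alone. The pooled promoter signals of the other 4 were 65.0 for unc-31 (CAPS, dense core vesicle priming), 30.2 for unc-13 (Munc13, vesicle priming), 27.4 for cpx-1 (complexin) and 15.4 for snt-1 (synaptotagmin, the calcium sensor). snt-1 was the lowest of the 17 release genes, with 12.2 in replicate 1 and no window entry in replicate 2.

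rab-3, the small GTPase of synaptic vesicles, had the highest promoter signal of the release genes. Its region at chrII:5725177-5725408 had 243.9 in the IDR list, 78.3 in replicate 1 and 167.4 in replicate 2, at −557 bp from the nearest 5′ end and inside an intron of 2879 bp of another rab-3 transcript, so the same region is counted in both places. The other vesicle and active zone genes of this group stayed below the threshold. sng-1 (synaptogyrin) had 73.7 in the pooled list, with 23.2 and 56.2 in replicates 1 and 2, which was the highest promoter value below the threshold among the 42. unc-2, the CaV2 calcium channel subunit, had 40.8 and unc-10, the RIM scaffold, had 28.9.

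Of the 4 endocytosis genes, 3 had an IDR region in either place, against 17.3% of all protein-coding genes. unc-11, the AP180 clathrin adaptor, had 225.8 at −962 bp, near the upstream edge of the window, with 66.5 in replicate 1 and 156.6 in replicate 2. unc-26, the synaptojanin phosphatase, had 166.7 at chrIV:13272614-13272717 and −163 bp, with 71 and 95.3. unc-41, a stonin that helps retrieve vesicle protein, had 47.7 in its promoter window but 299.0 in an intron at chrV:9970220-9970433, with 127.3 and 163.7. That was the strongest intronic region of the 42 genes, 1547 bp downstream of the nearest 5′ end. unc-57 (endophilin) had a pooled promoter signal of 41.6 and no pooled entry in an intron.

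Of the 7 genes of axon growth and active zone assembly, 2 had an IDR summit in the window (28.6%), against 15.9% of all protein-coding genes. An intron held one in 3 of the 7 (42.9%), against 3.52% of all protein-coding genes with introns. Per 100 kb of promoter window the group had 8.1 IDR summits, against 9.55 over all protein-coding genes. This group had 13.0 intronic summits per 100 kb of intron, from 5 summits, against 2.68 over all protein-coding genes. The density was 2.24 at release genes, 0 at transport genes and 3.12 at transmitter genes. unc-33, the CRMP protein that organizes axonal microtubules, had 3 regions. Its promoter region at chrIV:3519476-3519684 had 324.0, with 121.6 in replicate 1 and 197.7 in replicate 2, at −106 bp of a 5′ end and within an exon of another unc-33 transcript. The intronic regions had 250.4 (108.7 and 142.3 in replicates 1 and 2) at 5122 bp and 103.1 (54.9 and 50.2) at 1502 bp. The stronger of these intronic summits is at −2548 bp from the 5′ end of M57.2, which is nearer than any 5′ end of unc-33. The weakest of the 3 ranked 4271 in replicate 2.

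syd-2, the liprin-α scaffold that recruits active zone proteins, had 379.0 at chrX:10555480-10555873 and −410 bp, with 123.1 in replicate 1 and 260.4 in replicate 2. This was the highest promoter value of its role, and the summit also lies in an exon of the noncoding RNA gene F59F5.9. syd-1, a RhoGAP-like protein that acts before SYD-2, had 44.9 in its promoter window and 188.8 in an intron of 2542 bp at chrII:7593267-7593542, with 66.6 and 129.0, and that summit lies in an exon of the noncoding RNA gene F35D2.16. unc-44, sad-1 and rpm-1 had no IDR region in either place. The pooled promoter signals were 57.7 for unc-44 (ankyrin, which anchors membrane proteins to the axonal cytoskeleton) and 34.4 for sad-1 (a kinase of neuronal polarity and vesicle clustering). rpm-1, the ubiquitin ligase that limits axon and synapse growth, had no entry in any list in either place.

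unc-119, a lipid-binding trafficking protein needed for axon organization, had 2 IDR regions, both in an intron of 3747 bp, and a pooled promoter signal of 25.9. The region 824 bp downstream of the nearest 5′ end had 163.7, with 75.5 in replicate 1 and 91.5 in replicate 2. The other region, at −1140 bp from the nearest 5′ end, had 140.0, with 76 and 67.9. The strain carries the tm4063 allele of this gene, and its part in the result was not tested. The labels do not say whether the strain carries a further copy of unc-119, and signal from such a copy and from the gene's own locus cannot be told apart. Without unc-119, this role had 9.03 intronic summits per 100 kb of intron, against 13.0 with it. Over the members without unc-119, 6 of 41 genes had an intronic IDR summit and 16 of 41 had an IDR region in either place.

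Counting either place, the transmitter genes had the smallest share of the roles, 2 of 12 (16.7%), near the 17.3% of all protein-coding genes. In its window 1 gene had an IDR summit (8.33%), against 15.9% of all protein-coding genes. In an intron 1 gene had one (8.33%), above the 3.52% of all protein-coding genes with introns. The median of the strongest pooled promoter signals was 18.5 with the 3 genes that have no entry taken as 0. Over the 9 genes with an entry it was 22.2. egl-21, the carboxypeptidase that trims neuropeptide precursors in many neurons, had 302.0 at chrIV:10481731-10482061 and −25 bp, with 134.1 in replicate 1 and 168.0 in replicate 2. egl-3, the proprotein convertase that acts before EGL-21, had 48.4 in the pooled list, with strongest window signals of 18.4 and 43.4. None of the 10 genes that make, load or sort small-molecule transmitters had an IDR summit in its promoter window. The share of all protein-coding genes was 15.9%, and a group of 10 genes is too small to be set apart from it. Their strongest pooled promoter value was 55.2, at unc-25 (glutamate decarboxylase, which makes GABA), with 20.6 and 36.9 in replicates 1 and 2.

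eat-4, the vesicular glutamate transporter, had 36.9, and tdc-1, the tyrosine decarboxylase of tyramine and octopamine neurons, had 22.2. unc-17 and cha-1, the vesicular transporter and the synthetic enzyme of acetylcholine, share a locus and the same pooled entry of 18.5. unc-47, the vesicular GABA transporter, had 16.8. unc-46 (which sorts UNC-47), cat-2 (tyrosine hydroxylase) and tph-1 (tryptophan hydroxylase) had no promoter entry in the pooled list. cat-1, the vesicular monoamine transporter, had a promoter signal of 16.4 but an intronic IDR region of 212.2 at chrX:5707916-5708090, with 89.5 in replicate 1 and 122.1 in replicate 2. That summit lies 2605 bp downstream of the nearest 5′ end in an intron of 1844 bp, and it is the only IDR region in the windows and introns of the 10 genes.

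**Figure D2:**
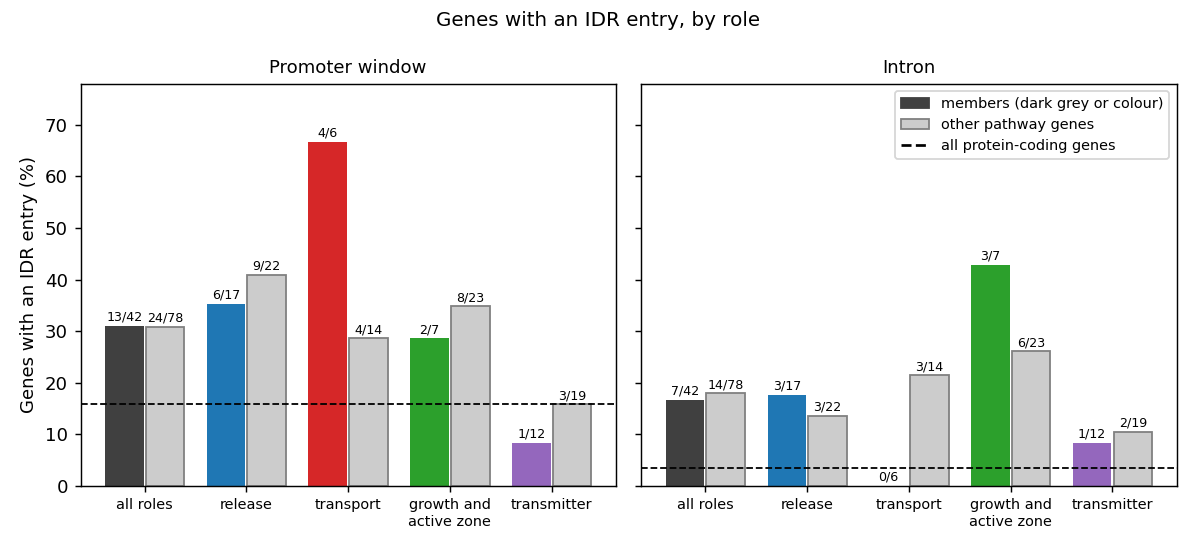
Percentage of genes with an IDR summit in the promoter window (left panel) and in an intron (right panel): members of each role in dark grey or colour, and other genes of the same pathways in light grey, with counts above the bars. The dashed lines are all protein-coding genes (15.9% for promoters) and all protein-coding genes with introns (3.52% for introns); transport leads the promoter panel with 4 of 6 and the transmitter role is lowest with 1 of 12.

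By role, the share of members with such a summit in the promoter was 66.7% for transport, 35.3% for release, 28.6% for axon growth and active zone, and 8.33% for transmitter genes. In this window the transmitter share is the only one below the 15.9% of all protein-coding genes. With 300 bp on each side the release share, 5.88%, was also below that of all protein-coding genes, 10.1%. These groups hold between 6 and 17 genes, they were not tested against each other, and transmitter genes are also the shortest, with a median length of 3990 bp. Per 100 kb of promoter window there were 20.6 IDR summits at transport genes, 11.6 at release genes, 8.1 at axon growth and active zone genes and 4.97 at transmitter genes, against 9.55 over all protein-coding genes. In this measure the axon growth and active zone genes lie below the value of all genes, as the transmitter genes do.

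A second list held 80 other genes of the same pathways, of which 78 were found in the annotation. The 42 members and these genes had nearly the same share with an IDR promoter summit, 31.0% for the members and 30.8% (24 of 78) for the others, and nearly the same share with an intronic one, 16.7% for the members and 17.9% for the others. With 2000 bp upstream the promoter shares were further apart, 54.8% (23 of 42) for the members and 39.7% (31 of 78) for the others, and this difference was not tested. Transport did not lead in the second list: 4 of its 14 transport genes had a promoter summit (28.6%), against 9 of 22 release genes (40.9%), 8 of 23 axon growth genes (34.8%) and 3 of 19 transmitter genes (15.8%). The transmitter share of the second list is thus close to the 15.9% of all protein-coding genes. With genes without an entry taken as 0, its median strongest pooled promoter signal was 22.3 for transport and 87.0 for release genes. It was 50.6 for axon growth and 20.4 for transmitter genes. Per 100 kb of intron, the second list had 3.39 IDR summits at axon growth genes and 10.3 at transport genes. The values were 5.86 at its release genes and 3.41 at its transmitter genes.

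The strongest of the other transport genes was klc-1, a kinesin light chain, with 885.0 (337.8 in replicate 1 and 541.1 in replicate 2), a region that also lies in the window of let-70. dli-1 (dynein light intermediate chain, 310.3), dnc-1 (dynactin, 294.2) and unc-69 (a coiled-coil partner of UNC-76, 235.1) also shared their regions with neighbours, which were exos-4.1 and tin-9.2, lsm-7, and ostf-4 and unc-50. All 4 of these regions thus lie in another gene's window as well, which none of the members' promoter regions does. Among axon growth genes the highest were spc-1 (α-spectrin, 654.3), glo-4 (an exchange factor that acts with RPM-1, 572.8), unc-115 (abLIM, 543.8) and unc-40 (the netrin receptor DCC, 287.8, shared with npp-7).

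Among release genes the highest were ric-19 (ICA69, of dense core vesicles, 331.6, shared with pmlr-1), dyn-1 (dynamin, 278.7), cab-1 (248.9) and unc-80 (an accessory subunit of the NALCN channel, 208.4). Of the transmitter genes, sbt-1 (the 7B2 chaperone of EGL-3, 342.6, shared with num-1), pghm-1 (a peptide amidating enzyme, 143.1) and snf-11 (the plasma membrane GABA transporter, 107.5) had a promoter summit.

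The IDR list passed the authors' threshold on repeated ranks, and it holds the 4087 strongest pooled entries. A region in it thus need not rank high in each replicate, and the spread between replicates is given as a description. All 21 distinct regions had an entry in both replicate lists, and 19 of them were among the 4087 strongest entries of each. The exceptions were the unc-116 promoter and the weaker unc-33 intronic region, each outside the strongest 4087 in replicate 2. The log2 ratio of replicate 2 to replicate 1 signal had a median of 0.42 (SD 0.5, n = 21 regions), against 0.44 (SD 0.44, n = 4077 regions) over all IDR entries with both replicates. Replicate 2 was higher in 17 of the 21, and in 86.8% of all IDR entries, so most of this offset is shared by the lists as wholes. unc-11 had the largest ratio, 1.24, and unc-116 the smallest, −0.58. The summits of the replicates lay a median of 19 bp apart at the members, and 64 bp at most, against a median of 14 bp over all IDR entries.

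**Figure D3:**
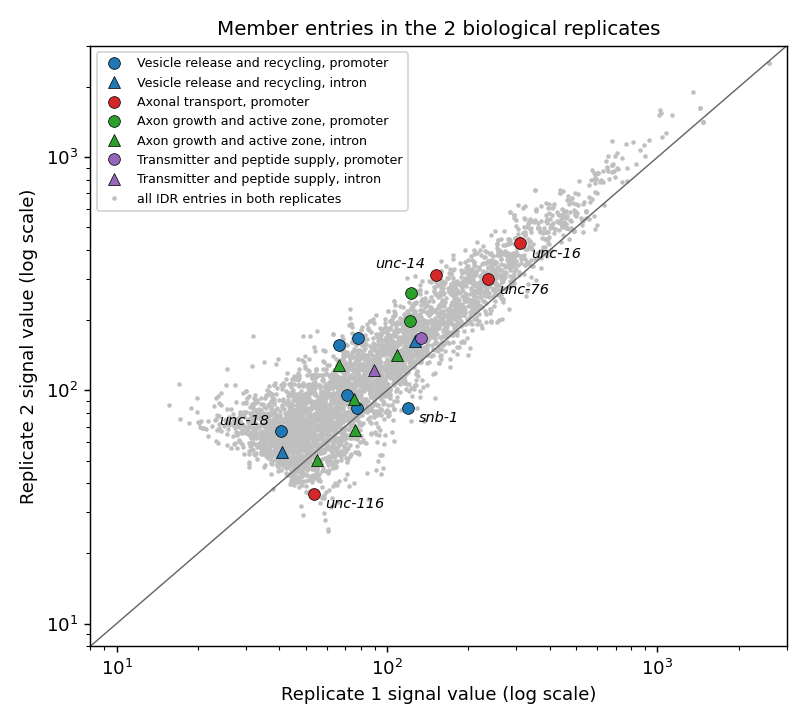
Signal value in replicate 2 against replicate 1, log axes, for the 21 regions of the members (coloured by role, circles in promoter windows, triangles in introns) and for 4077 IDR entries with both replicates (grey); the line marks equal values. Most member regions lie above the line with the bulk of the entries, and snb-1 and unc-116 are the promoter regions below it.

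Within the IDR list the members' regions were of middle strength. Their median signal was 212.2, against 183.3 over all 4087 IDR entries, and 13 of the 21 ranked among the stronger 2043. All 13 promoter summits lay upstream of the 5′ end, with a median of −289 bp. Over all protein-coding genes the 3420 pairs of a gene and a summit in its window had a median of −229 bp, and 93.2% were upstream. None of the members' 13 promoter summits lay in the window of another protein-coding gene, against 49.0% of the 3420 pairs, and the member's own 5′ end was the nearest in each case. Many C. elegans transcripts receive their 5′ end by trans-splicing, so the start of transcription can lie further upstream than the annotation shows, and distances are given from annotated ends only.

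The count depends on how far upstream the window reaches. With a window of 300 bp on each side, 7 of the 42 genes (16.7%) kept one, against 10.1% of all protein-coding genes, and the 6 that dropped out were rab-3, snb-1, syd-2, tom-1, unc-11 and unc-18. With 2000 bp upstream, 23 of 42 (54.8%) had one, against 20.0% of all genes. The 10 genes added include both remaining transport genes, unc-51 with 468.3 at −1438 bp (175.8 in replicate 1 and 303.1 in replicate 2) and unc-104 with 224.0 at −1861 bp (86.6 and 136.3). They also include egl-3 with 446.0 at −1096 bp (158.5 and 286.7) and unc-64 with 435.0 at −1272 bp (175.4 and 257.5), values above those of every release gene within the main window. None of the 10 added summits lay in the main window of any protein-coding gene, and each had the member's 5′ end as its nearest.

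Of the other 6 genes added, unc-57 had 256.4 at −1122 bp, unc-44 had 230.8 at −1330 bp, sad-1 had 189.0 at −1869 bp and unc-13 had 142.8 at −1323 bp, while the regions of syd-1 and unc-119 are the intronic ones already described. unc-116 keeps its call in this wider window through a stronger region, with 300.9. None of the 10 genes for small-molecule transmitters gained a promoter summit.

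**Figure D4:**
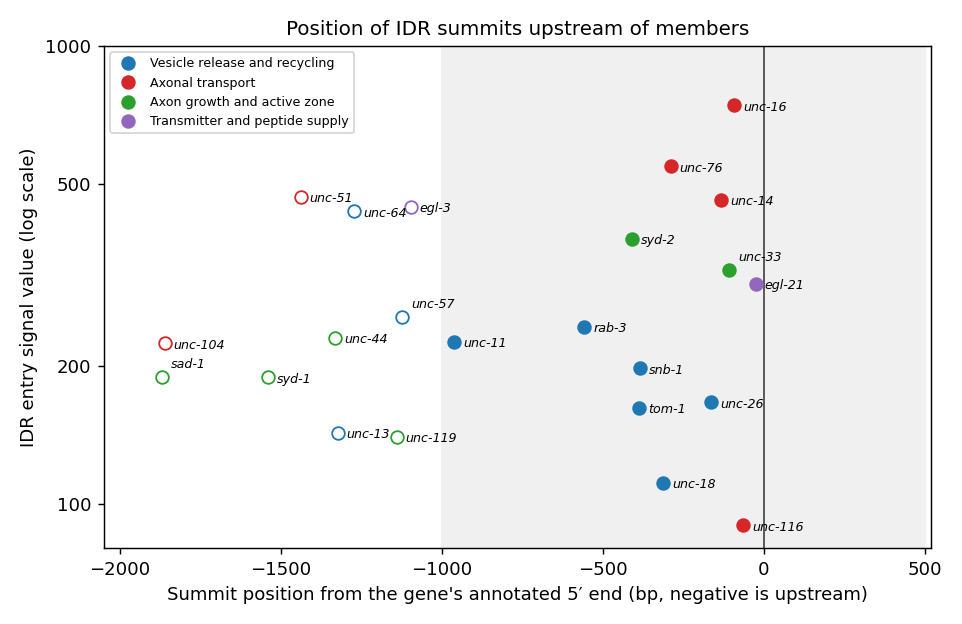
Signal value (log axis) of each member's IDR summit against its distance from the annotated 5′ end in bp, coloured by role; filled circles lie in the main window (shaded, 1000 bp upstream and 500 bp downstream) and open circles are the strongest summits of the 10 genes that gain one with 2000 bp upstream. All filled circles lie left of 0, and the open circles of unc-51, egl-3 and unc-64 are at 435.0 or more.

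Of 7 short motifs searched on both strands in the 200 bp around each summit, 2 occurred at the members' regions. ATCGAT was present in 6 of the 21 regions (28.6%), those of snb-1, rab-3, unc-11, syd-2 and egl-21 and the intronic region of syd-1, against 9.2% of all 4087 IDR regions of the same length. GAGAGA was present in 15 of 21 (71.4%), against 45.5%. The printed bases show the matches: ATCGAT starts at base 134 of the rab-3 sequence, 108 of syd-2 and 98 of egl-21, in each case close to the summit at the centre, and is not in the unc-16 or unc-41 bases. The other 5 motifs had 0 matches at the 21 regions in 200 bp, although 4 of them had 1 to 3 matched regions in 400 bp. Over all IDR regions, the E-box CACGTG was in 7.32%, the CRE type site TGACGT in 8.76% and the GATA type site TGATAA in 9.52%, while a run of TTTTTTTT was in 11.9% and the COE motif in 0.196%. Median GC content was 45.5% at the members' regions, against 44%. These are matches of letters in a window, and no factor's binding was measured. The 2 motifs can share no more than a base at their ends.

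The regions were spread over all 6 chromosomes. Promoter summits were found at 3 of 6 members on chromosome I, 1 of 7 on II, 2 of 7 on III, 3 of 7 on IV, 2 of 8 on V and 2 of 7 on X. The share of all protein-coding genes on each chromosome is not given here. These small counts therefore cannot be read as a difference between chromosomes or as an even spread.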

How the data were processed

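According to the deposited readme, the authors mapped reads to builds ce10 and ce11. They called candidates in each replicate and in the pool, and derived from these a list that passed an IDR threshold. A control input is listed, and its data were not used here. The aligner and the caller are each not given in the sources used here. Deposited lists give each region's position, summit, signal value (the caller's enrichment measure, comparable within a list only) and −log10 q-value. The deposited −log10 q-values were 4.09 for every IDR entry and were not used for ranking. Read depth is unknown. The ce10 lists were not used. Nothing beyond the labels says that the 2 replicates came from separate cultures; no region had the same position and signal in both.

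Summits were assigned to genes of Ensembl release 115 (WBcel235) without merging entries, in a promoter window of 1000 bp upstream to 500 bp downstream and in introns, with python 3.11.15, pandas 2.3.3 and numpy 2.4.6; coordinates are 1-based. Motifs were searched in 200 bp of RefSeq sequence. The assignment was tested on simulated data, where 200 of 200 planted promoter summits and 200 of 200 intronic summits were recovered. Values per replicate are the strongest overlapping entry of its list, or the strongest in the window for genes outside the IDR list. With 1 group there was no test. The members, roles and lists were chosen with earlier results of these data known. Every member is accounted for: those with an IDR region are given with their values, the others from the pooled list, and of the other pathway genes with an IDR promoter summit, up to 4 with the highest signal in each role are named. Alternatives were the strongest 2043 IDR entries, each replicate's strongest 4087 entries alone, windows of 300 and 2000 bp, the nearest 5′ end only, overlap of 1 bp, other intron rules, and motif windows of 100 and 400 bp.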

Additional observations from a re-analysis of the deposited data

How the results depend on the processing

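With a window of 300 bp on each side, 7 of the 42 members (16.7%) and 14 of the other 78 pathway genes (17.9%) had an IDR promoter summit. Among the members were 1 of 17 release genes (5.88%) and 1 of 7 genes of axon growth and active zone (14.3%). With 2000 bp upstream the counts were 23 of 42 members (54.8%), 6 of 7 genes of axon growth and active zone (85.7%) and 2 of 12 transmitter genes (16.7%). Of all protein-coding genes, 10.1% had one with 300 bp on each side and 20.0% with 2000 bp upstream. With 300 bp on each side the release share was thus below that of all protein-coding genes, unlike in the main window. Counting any overlap of 1 bp with the window gave 2 of 12 transmitter genes (16.7%), against 16.7% of all protein-coding genes. Keeping the strongest 2043 IDR entries gave 3 of 17 release genes (17.6%), against 9.56%. A smaller window or list can only keep or lower a count, and a larger one can only keep or raise it. The size of the changes was not tested. From the main window to 2000 bp upstream, the share of members rose from 31.0% to 54.8%. That of all protein-coding genes rose from 15.9% to 20.0%. Using the strongest 4087 entries of 1 replicate alone gave 14 members (33.3%) either way. The shares of all protein-coding genes were 15.8% without replicate 1 and 15.6% without replicate 2. Without replicate 1, sng-1 and unc-57 were gained and unc-116 was lost, and without replicate 2, unc-104 was gained. The intronic count ranged between 5 and 8 of 42 over the alternatives. With the strongest 2043 IDR entries it was 5, and the share of all protein-coding genes with introns was 1.76%. Counting any overlap of 1 bp it was 8, and that share was 4.53%. Without replicate 2 it was also 8, and that share was 3.52%. The count in either place ranged between 12 and 25. The shares of all protein-coding genes in either place under these alternatives are not given here, so that range cannot be set against them. Leaving out unc-119, chosen after seeing the data, gave 6 of 41 in an intron and 16 of 41 in either place. In 100 bp around the summit, ATCGAT was in 19% and GAGAGA in 52.4% of the members' regions, against 4.14% and 31.6% of all IDR regions. In 400 bp the shares were 28.6% and 71.4%, against 19.3% and 55.5%. CACGTG, absent in 200 bp, was then in 4.76% and TGACGT in 9.52% of the members' regions, against 11% and 15% of all IDR regions. The GATA type site and the T run were each in 14.3%, against 25.2% and 32.2%. No paired analysis was possible because there was 1 group. With no reads or depth, regions below the 30000 entries of a list could not be seen.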
